A study of Mus musculus with 6 samples.

Results

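The MHC class I and peptide loading genes were taken as the 10 listed symbols H2-K1, H2-D1, H2-T23, B2m, Tap1, Tap2, Tapbp, Psmb8, Psmb9 and Erap1. All 10 were found among the 12023 genes of the deposited count table, and 9 of them passed the filter on low counts. Erap1 did not. The cells were normal mammary fibroblasts (NMFs), which were taken from mammary fat pads of healthy female mice and grown in dishes; the mice were of 2 inbred strains. The groups were BALB/c, with 3 biological replicates, and C57BL/6, with 3 biological replicates. All mice were 8 to 12 weeks old, with no treatment and no engineered allele named in the labels, and all cells were cultured for 4 days on collagen before libraries of the 3′ ends of polyadenylated RNA were made. Digested tissue was plated and a magnetic separation is named in the design text, but what it selected is not stated there.

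Class I molecules carry peptides from inside the cell to its surface, where T cells read them and natural killer (NK) cells use their presence as a signal of self. A heavy chain (H2-K1 and H2-D1 for the classical molecules, H2-T23 for the nonclassical Qa-1) pairs with the light chain B2m. Peptides are cut by the proteasome, whose inducible catalytic subunits include Psmb8 and Psmb9, carried into the endoplasmic reticulum by the transporter Tap1 with Tap2, trimmed by the aminopeptidase Erap1 and loaded with the help of tapasin, the product of Tapbp. In fibroblasts the pathway is expressed at a basal level and induced by interferons. BALB/c mice carry the d haplotype of this locus and C57BL/6 mice the b haplotype, and the reference genome is C57BL/6J.

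On GRCm38, the assembly also called mm10, 8 of the 10 genes lie on chromosome 17 within the major histocompatibility complex. Tapbp (ENSMUSG00000024308.15) is at chr17:33915899-33929292 and H2-K1 (ENSMUSG00000061232.16) at chr17:33996017-34000347. Psmb9 (ENSMUSG00000096727.3, chr17:34181987-34187764), Tap1 (ENSMUSG00000037321.17, chr17:34187553-34197225), Psmb8 (ENSMUSG00000024338.15, chr17:34197721-34201454) and Tap2 (ENSMUSG00000024339.12, chr17:34203527-34216321) follow one another without another member between them. This block holds both transporter subunits beside both listed proteasome subunits. H2-D1 (ENSMUSG00000073411.11, chr17:35262730-35267499) and H2-T23 (ENSMUSG00000067212.8, chr17:36029773-36032855) lie farther along. B2m (ENSMUSG00000060802.8, chr2:122147686-122153083) and Erap1 (ENSMUSG00000021583.7, chr13:74639568-74693201) are outside the complex.

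The start regions of the heavy chains, B2m and Tap1 are shown because H2-K1, H2-D1 and B2m share a set of regulatory letters there that H2-T23 and Tap1 hold only in part. The windows run from 250 bases before to 50 after the start, from RefSeq on GRCm38.p6, which held 9 of the 10 members. Tap2 was not matched. Capitals mark, on either strand, TTTCNNTT (core of the element that interferon regulatory factors bind), GGGANNNNCC (a form of the kappa B site), CCAAT (the box bound by NF-Y), the letters TGACG (core of a cyclic AMP response-like element) and TATAAA. No match of one motif overlapped a match of another in these windows.

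H2-K1 (chr17:34000298-34000597, minus strand): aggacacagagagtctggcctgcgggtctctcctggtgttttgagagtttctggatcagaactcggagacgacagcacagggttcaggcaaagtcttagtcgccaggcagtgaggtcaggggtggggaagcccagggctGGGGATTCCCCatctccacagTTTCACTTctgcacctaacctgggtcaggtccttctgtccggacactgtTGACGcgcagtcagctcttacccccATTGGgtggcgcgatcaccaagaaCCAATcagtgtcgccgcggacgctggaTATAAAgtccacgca

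H2-D1 (chr17:35262844-35263143, plus strand): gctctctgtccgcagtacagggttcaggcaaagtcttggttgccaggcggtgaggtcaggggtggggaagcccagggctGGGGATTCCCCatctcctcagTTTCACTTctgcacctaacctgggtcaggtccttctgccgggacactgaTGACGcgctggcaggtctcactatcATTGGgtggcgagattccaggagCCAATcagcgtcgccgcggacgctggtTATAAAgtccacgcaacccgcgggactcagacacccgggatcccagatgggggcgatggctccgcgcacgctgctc

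H2-T23 (chr17:36032652-36032951, minus strand): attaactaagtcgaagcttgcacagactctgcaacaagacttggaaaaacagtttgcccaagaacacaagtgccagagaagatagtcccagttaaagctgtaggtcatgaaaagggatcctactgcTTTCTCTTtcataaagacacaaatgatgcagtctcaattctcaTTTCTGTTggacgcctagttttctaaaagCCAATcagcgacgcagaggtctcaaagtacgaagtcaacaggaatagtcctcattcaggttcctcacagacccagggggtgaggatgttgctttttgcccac

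B2m (chr2:122147437-122147736, plus strand): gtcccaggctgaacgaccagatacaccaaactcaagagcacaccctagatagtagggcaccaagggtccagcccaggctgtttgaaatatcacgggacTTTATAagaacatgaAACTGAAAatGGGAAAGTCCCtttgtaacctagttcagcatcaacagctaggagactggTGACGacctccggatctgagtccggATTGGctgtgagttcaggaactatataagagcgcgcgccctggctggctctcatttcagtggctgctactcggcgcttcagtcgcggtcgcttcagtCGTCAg

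Tap1 (chr17:34187306-34187605, plus strand): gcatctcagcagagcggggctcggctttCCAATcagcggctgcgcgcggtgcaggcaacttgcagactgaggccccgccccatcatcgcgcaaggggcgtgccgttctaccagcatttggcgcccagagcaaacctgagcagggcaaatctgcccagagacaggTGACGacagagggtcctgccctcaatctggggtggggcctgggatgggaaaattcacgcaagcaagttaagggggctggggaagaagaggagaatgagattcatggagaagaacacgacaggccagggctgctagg

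The H2-K1 and H2-D1 windows matched at 211 of 240 aligned positions, or 87.9%, and both held all 5 motifs. The B2m window also held all 5. H2-T23 held TTTCNNTT and CCAAT but not the other 3, and no motif was found in all 9 windows. The Tap1 and Psmb9 windows share 275 bases, since the 2 genes start 226 bases apart and are read in opposite directions. Across the 9 matched members, TTTCNNTT was found in 5, against 24.2% of 27025 promoters of the same length, and GGGANNNNCC in 3, against 20.5%. CCAAT was found in 7 against 37.9%, TGACG in 5 against 21.0% and TATAAA in 4 against 14.2%. These are matches of letters in the C57BL/6J reference, and the BALB/c sequences were not analysed here.

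Total counts were 1035485 to 2713611 in the BALB/c libraries and 1295349 to 4665896 in the C57BL/6 libraries. Values are given in CPM, counts scaled by library total and TMM factor, the trimmed mean correction for composition, and 3 counts were worth 0.612 to 2.90 CPM. C57BL/6 replicate 1 stood apart on the first principal component, which held 68.2% of the variance, with a mean correlation with the other libraries of 0.779 where the others had 0.870 to 0.910. Of the 9 fibroblast markers listed, 8 were in the table, and their summed level ranged from 4132 to 10772 CPM in BALB/c and from 2342 to 11610 CPM in C57BL/6. The 10 epithelial markers were all present, at 1918, 11405 and 8898 CPM in BALB/c replicates 1 to 3, against 17951, 3106 and 9934 CPM in C57BL/6 replicates 1 to 3. The cultures held RNA of epithelial markers beside that of fibroblasts, with the least in BALB/c replicate 1 and C57BL/6 replicate 2. In bulk RNA, fewer cells of a type and less RNA per cell cannot be told apart.

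None of the 9 tested class I and peptide loading genes differed between the strains at an adjusted p under 0.05 by the quasi-likelihood test of edgeR, adjusted by Benjamini-Hochberg over 8752 genes. Of all tested genes 18, or 0.206%, passed, 0.0686% higher and 0.137% lower in BALB/c. One member, H2-T23, had an unadjusted p under 0.05, as did 3.86% of all tested genes. In 8 of the 9 the log2 difference, BALB/c minus C57BL/6, was below 0, and the median was -0.47, against 0.01 over all tested genes. The BALB/c libraries all lay below the C57BL/6 libraries in 3 members (H2-T23, Tap2 and Psmb9), as they did in 6.22% of all tested genes. With library totals alone or upper quartile scaling, this held for H2-T23 and Tap2 but not for Psmb9, and H2-D1 then lay higher in every BALB/c library. Over all tested genes the share lying higher in every BALB/c library was 5.15% under TMM scaling, 6.39% with upper quartile scaling and 5.8% with totals alone, and the share lying lower was 5.27% with upper quartile scaling and 5.14% with totals alone. DESeq2 and limma-voom also called 0 of the 9, with 1 unadjusted p under 0.05 each. This last count was 3 for limma-voom with library quality weights, where 1050 of all 8752 genes had such a p. It was 3 without C57BL/6 replicate 1 and 3 without C57BL/6 replicate 2 (454 of 9065 and 598 of 9078 genes by edgeR). Without BALB/c replicate 2 and without BALB/c replicate 3 it was 0 (205 of 8993 and 226 of 9143 genes). With the epithelial marker level as a covariate it was 2 (418 of 8752 genes by edgeR).

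**Figure D1:**
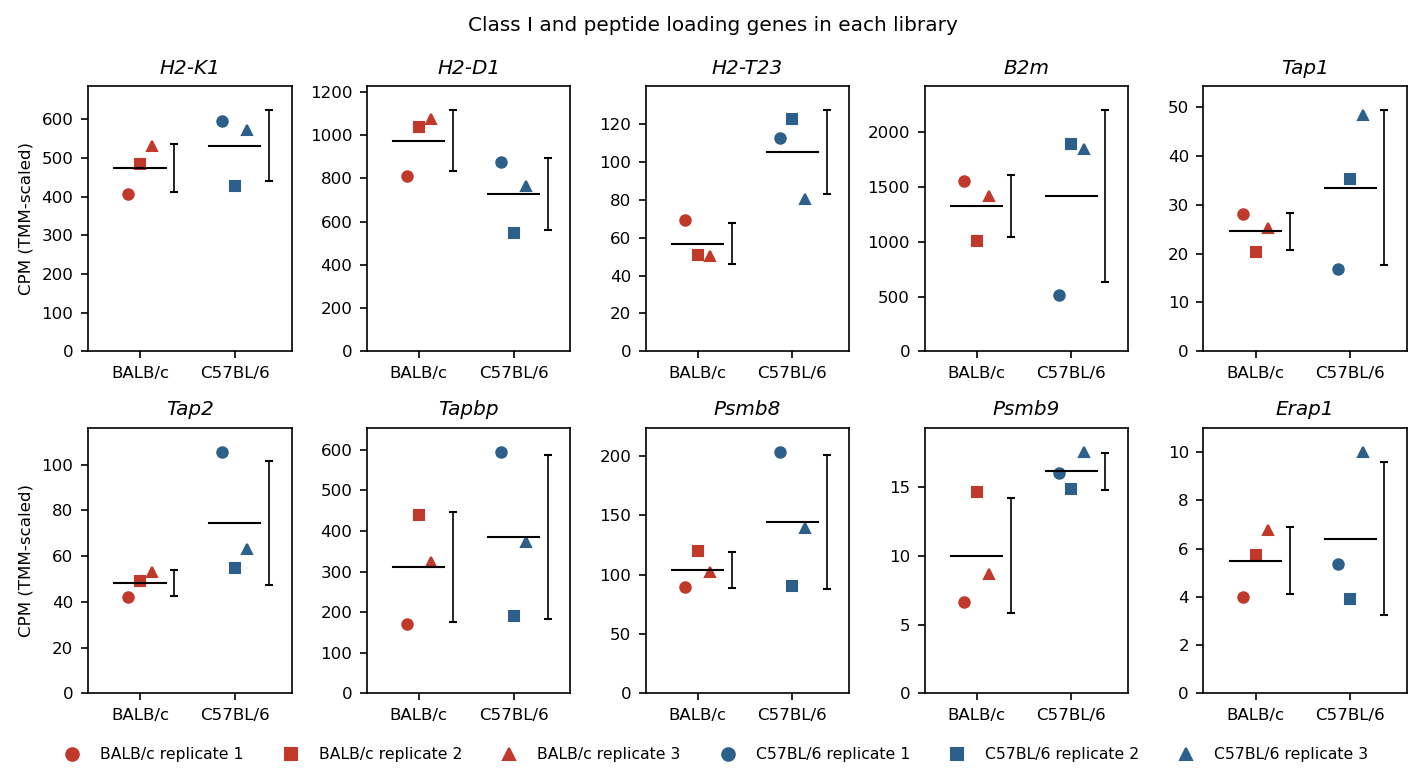
CPM on a linear axis from 0 for each of the 10 genes, with BALB/c at the left and C57BL/6 at the right of each panel. Points are libraries, horizontal lines are means and bars are 1 SD over 3 libraries; H2-T23 separates the strains, at 50.3 to 69.4 CPM in BALB/c and 80.2 to 123 CPM in C57BL/6, and B2m is lowest in C57BL/6 replicate 1.

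Among the heavy chains, H2-T23 was the member with the lowest p. It encodes the heavy chain of Qa-1, which presents leader peptides of other class I chains to the inhibitory NK receptor CD94/NKG2A. Its level was 69.4, 50.8 and 50.3 CPM in BALB/c replicates 1 to 3, against 112, 123 and 80.2 CPM in C57BL/6 replicates 1 to 3. The strains did not overlap. The means were 56.8 ± 10.9 CPM for BALB/c cells, against 105 ± 22.2 CPM for C57BL/6 cells (SD, n = 3 each), a log2 difference of -0.88 ± 0.28 (SE; edgeR adjusted p = 0.954, unadjusted p of 0.0147). The 95% interval ran from -1.53 to -0.23, and 127 of the 8752 genes had a lower p. Leaving out one library at a time gave -1.07 to -0.74, and limma-voom with library quality weights gave -0.67, the smallest of all alternatives. The adjusted p over all alternatives ranged from 0.275, with those weights, to 1.00.

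The count of H2-T23 is uncertain, because stretches of the last 500 nt of its transcript match transcripts of other genes. Whole transcripts were searched, so a match need not lie at the 3′ end of the other gene. Of the annotated genes, 39 matched these 500 nt at 95% identity or more over at least 60 nt. The longest match was over 281 nt in H2-T-ps, a neighbouring pseudogene by its name, and H2-T22 was also among the 39. A match over part of the transcript end does not by itself make a gene a copy of H2-T23. The treatment of reads that fit several places is not given in the sources. H2-T-ps had 4 counts summed over the BALB/c libraries and 41 summed over the C57BL/6 libraries, so that BALB/c had 0.137 times the C57BL/6 count for the same effective depth, with an exact 95% interval for counting error alone of 0.0357 to 0.379. The H2-T23 sums were 697 for the C57BL/6 libraries and 298 for the BALB/c libraries. With the treatment of shared reads unknown, the H2-T-ps counts do not show how many reads H2-T23 gained or lost. The part of shared reads in the H2-T23 result was not tested. Where BALB/c alleles depart from the C57BL/6J sequence, reads may also fail to align, and the part of this in the H2-T23 result was not tested.

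The classical heavy chains had differences of opposite sign, neither past the threshold. H2-K1, which encodes the K molecule, was at 408, 486 and 531 CPM in BALB/c replicates 1 to 3, against 597, 427 and 573 CPM in C57BL/6 replicates 1 to 3. The ranges overlapped, and the log2 difference was -0.16 ± 0.24 with a 95% interval from -0.73 to 0.40, which spans levels in BALB/c of 0.603 to 1.32 times those in C57BL/6 (edgeR adjusted p = 0.954). H2-K1 had the smallest spread of the members over the 6 libraries, with an SD of 0.22 in log2 CPM. H2-D1, which encodes the D molecule, was at 812, 1037 and 1073 CPM in BALB/c replicates 1 to 3, against 876, 549 and 763 CPM in C57BL/6 replicates 1 to 3. C57BL/6 replicate 1 lay above BALB/c replicate 1, and the log2 difference was 0.42 ± 0.26 with a 95% interval from -0.19 to 1.03 (edgeR adjusted p = 0.954).

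The ratio of H2-D1 to H2-K1 counts separated the strains with little spread. A ratio of 2 genes within a library does not depend on the scaling of the libraries, and it is compared here between strains and not as a comparison of the 2 genes' levels. There were 1.99, 2.13 and 2.02 counts of H2-D1 per count of H2-K1 in BALB/c replicates 1 to 3, against 1.47, 1.29 and 1.33 in C57BL/6 replicates 1 to 3. Every BALB/c library lay above every C57BL/6 library. The exact 95% intervals of these ratios reached down to 1.80 in BALB/c and up to 1.61 in C57BL/6, but they cover counting error only, and libraries of one strain differed over all genes by more than counting error. In log2, the ratio averaged 1.03 ± 0.05 in BALB/c and 0.44 ± 0.10 in C57BL/6 (SD, n = 3 each), a difference of 0.59 or 1.51-fold. The exact two-sided permutation p was 0.10, the smallest that 3 against 3 libraries can give, and 0.45 adjusted over the 9 ratios computed. Leaving out one library at a time gave differences of 0.55 to 0.65.

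The d haplotype of BALB/c carries a further classical heavy chain gene, H2-L, close in sequence to H2-D1, which the b haplotype and the reference lack. H2-L was not analysed here, and where its reads were counted is not known. Within the reference, the last 500 nt of H2-D1 matched H2-K1 over 180 nt at 90.6% identity. Those of H2-K1 matched H2-D1 over 318 nt at 88.4% identity. Both lay below the limit of 95% identity over at least 60 nt. Stretches of 17 other genes met that limit for H2-D1, the longest over 148 nt in Cflar. These matches cover only part of the transcript end and do not make the genes copies of H2-D1. The part of reads shared with H2-L or other genes in the H2-D1 to H2-K1 ratio was not tested.

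**Figure D2:**
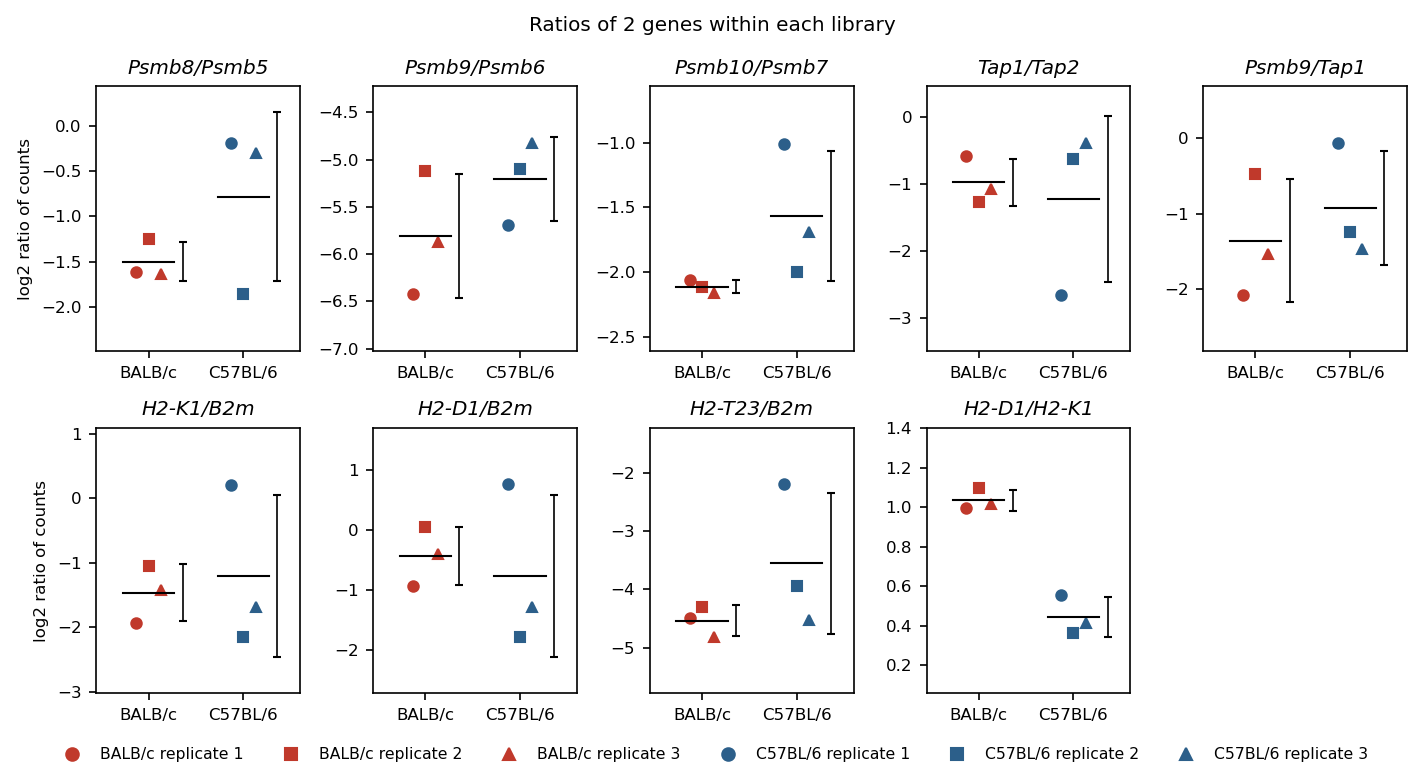
Log2 ratio of the counts of 2 genes within each library, BALB/c left and C57BL/6 right in each panel, with means as lines and 1 SD over 3 libraries as bars; each panel has its own vertical range. H2-D1/H2-K1 holds the strains apart, at a mean of 1.03 in BALB/c and 0.44 in C57BL/6, while the 3 ratios to B2m spread with C57BL/6 replicate 1.

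B2m, the light chain that every class I heavy chain here needs to fold, was at 1552, 1003 and 1421 CPM in BALB/c replicates 1 to 3, against 516, 1890 and 1848 CPM in C57BL/6 replicates 1 to 3. The BALB/c libraries lay between the lowest C57BL/6 library and the other 2. The means were 1325 ± 287 CPM for BALB/c cells, against 1418 ± 781 CPM for C57BL/6 cells (SD, n = 3 each), and the log2 difference was -0.10 ± 0.48 with a 95% interval from -1.22 to 1.03 (edgeR adjusted p = 0.978). Its sign turned in 5 of 16 alternatives. Without C57BL/6 replicate 1 it was -0.51. The B2m transcript is 860 nt long with a GC content of 41.2%, where the other tested members have 53.9% to 57.3% and Erap1 41.5%. Over the last 500 nt B2m has 35%, Erap1 41% and the other tested members 44.2% to 55.2%. In C57BL/6 replicate 1, log2 CPM minus the mean over 6 libraries was -1.29 for B2m. It was -0.67 there for Tap1, which has 57.3% GC, and -0.08 for Erap1, which had 7 counts. The part of base composition in the low value of B2m in C57BL/6 replicate 1 was not tested.

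The ratios of heavy chains to B2m depended on that library. There were 0.263, 0.484 and 0.374 counts of H2-K1 per count of B2m in BALB/c replicates 1 to 3, against 1.16, 0.226 and 0.310 in C57BL/6 replicates 1 to 3. The log2 difference of this ratio was -0.26 with all libraries and 0.45 without C57BL/6 replicate 1, opposite in sign. For H2-T23 to B2m the log2 difference was -0.97, and -0.29 without C57BL/6 replicate 1 (exact permutation p = 0.30 with all libraries, adjusted 0.675). No ratio to B2m separated the strains.

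The subunits of the peptide transporter are both needed for transport, and their order over the libraries was not the same. Tap1 was at 28.0, 20.4 and 25.2 CPM in BALB/c replicates 1 to 3, against 16.8, 35.2 and 48.4 CPM in C57BL/6 replicates 1 to 3. C57BL/6 held both the lowest and the highest library, and the log2 difference was -0.47 ± 0.43 (edgeR adjusted p = 0.954). Without C57BL/6 replicate 1 it was -0.81 (edgeR adjusted p = 0.797), and without C57BL/6 replicate 3 it was -0.10. Tap2 was at 42.0, 49.0 and 53.2 CPM in BALB/c replicates 1 to 3, against 105, 54.7 and 63.3 CPM in C57BL/6 replicates 1 to 3. The strains did not overlap in Tap2, though BALB/c replicate 3 and C57BL/6 replicate 2 lay within 2 CPM of each other. The log2 difference was -0.63 ± 0.32 with a 95% interval from -1.38 to 0.12 (edgeR adjusted p = 0.954), and it was -0.31 without C57BL/6 replicate 1.

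Tapbp encodes tapasin, which bridges the transporter and the empty class I molecule. It was at 171, 440 and 324 CPM in BALB/c replicates 1 to 3, against 594, 191 and 373 CPM in C57BL/6 replicates 1 to 3. The lowest library of each strain was the one with the fewest epithelial marker counts, BALB/c replicate 1 and C57BL/6 replicate 2, and the highest was C57BL/6 replicate 1, the one with the most. The log2 difference was -0.31 ± 0.49 (edgeR adjusted p = 0.954). It was 0.14 without C57BL/6 replicate 1 and -0.08 with the epithelial marker level as a covariate. The same lowest and highest libraries were seen in H2-K1, Tap2 and Psmb8. With the covariate the log2 difference was -0.10 for H2-K1, -0.53 for Tap2 and -0.32 for Psmb8. For the other tested members it was -0.94 for H2-T23, 0.50 for H2-D1, -0.54 for Tap1, -0.14 for B2m and -0.62 for Psmb9. The differences of H2-T23, H2-D1, Tap1 and B2m were thus farther from 0 than without the covariate, and that of Psmb9 was nearer. H2-D1, Psmb9 and Erap1 shared the lowest library of each strain but not the highest library. H2-T23, B2m and Tap1 went the other way in BALB/c, where replicate 1 was the highest, at 69.4, 1552 and 28.0 CPM. C57BL/6 replicate 2 was the highest of all libraries in H2-T23 and B2m, at 123 and 1890 CPM.

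**Figure D3:**
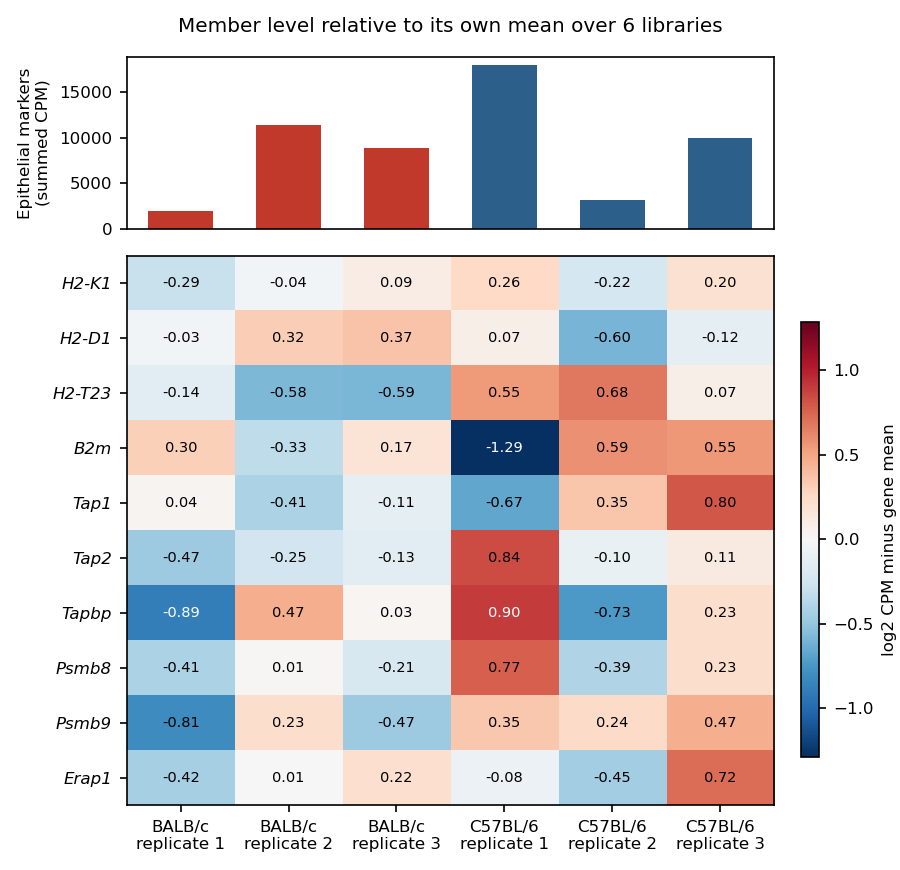
Upper bars give the summed CPM of 10 epithelial markers in each library, and the grid below gives each gene's log2 CPM minus its own mean over the 6 libraries, with red above and blue below the mean and BALB/c libraries at the left. Tapbp runs from -0.89 in BALB/c replicate 1 to 0.90 in C57BL/6 replicate 1, where B2m is at -1.29 and Tap2 at 0.84.

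The inducible proteasome subunits Psmb8 and Psmb9 replace the constitutive subunits Psmb5 and Psmb6 and shift cleavage toward peptides that fit class I grooves. Psmb8 was at 89.4, 120 and 103 CPM in BALB/c replicates 1 to 3, against 203, 90.7 and 139 CPM in C57BL/6 replicates 1 to 3. The ranges overlapped through C57BL/6 replicate 2, and the log2 difference was -0.47 ± 0.33 (edgeR adjusted p = 0.954), or -0.16 without C57BL/6 replicate 1. Psmb9 was at 6.67, 14.7 and 8.71 CPM in BALB/c replicates 1 to 3, against 16.04, 14.85 and 17.55 CPM in C57BL/6 replicates 1 to 3. These rest on 9 to 86 counts per library, and BALB/c replicate 2 all but met C57BL/6 replicate 2. The log2 difference was -0.66 ± 0.43 with a 95% interval from -1.67 to 0.35 (edgeR adjusted p = 0.954), and it was -1.08 without BALB/c replicate 2 and -0.44 without BALB/c replicate 1.

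Set against their constitutive counterparts, the inducible subunits did not separate the strains for Psmb8 and Psmb9. There were 0.325, 0.419 and 0.322 counts of Psmb8 per count of Psmb5 in BALB/c replicates 1 to 3, against 0.875, 0.276 and 0.812 in C57BL/6 replicates 1 to 3. C57BL/6 replicate 2 lay below every BALB/c library, and the log2 difference was -0.72 (exact permutation p = 0.40, adjusted 0.72). It was -0.42 without C57BL/6 replicate 1, -0.48 without C57BL/6 replicate 3 and -1.25 without C57BL/6 replicate 2. For Psmb9 to Psmb6 the log2 difference was -0.57 (exact permutation p = 0.20, adjusted 0.60), and it was -0.27 without BALB/c replicate 1 and -0.89 without BALB/c replicate 2. The third inducible subunit, Psmb10, had 0.240, 0.231 and 0.223 counts per count of Psmb7 in BALB/c and 0.495, 0.250 and 0.309 in C57BL/6, with no overlap. The log2 difference of that ratio was -0.54, and it was -0.27 without C57BL/6 replicate 1 (exact permutation p = 0.10 with all libraries, adjusted 0.45).

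Tap1 and Psmb9, which share the start region shown above, did not keep a fixed ratio. There were 0.238, 0.719 and 0.346 counts of Psmb9 per count of Tap1 in BALB/c replicates 1 to 3, against 0.955, 0.422 and 0.363 in C57BL/6 replicates 1 to 3. The log2 difference was -0.41 with all libraries and 0.02 without C57BL/6 replicate 1 (exact permutation p = 0.50 with all libraries, adjusted 0.75). Annotated exons of the 2 genes overlap on opposite strands, and the sources do not say whether counting used the strand.

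Erap1, which trims peptides in the endoplasmic reticulum to the length that class I grooves hold, had 6, 16 and 7 counts in BALB/c replicates 1 to 3, against 7, 5 and 49 counts in C57BL/6 replicates 1 to 3. It was below the filter of the test, at 5.50 ± 1.40 CPM for BALB/c cells, against 6.42 ± 3.18 CPM for C57BL/6 cells (SD, n = 3 each), and the ranges overlapped. With no filter its log2 difference was -0.30 ± 0.56 with a 95% interval from -1.58 to 0.98 (edgeR adjusted p = 0.961). Its exons overlap those of Cast on the opposite strand. Of the other members, Tapbp has exons that overlap Zbtb22 on the same strand and Gm19412 on the opposite strand. Exons of Tap2 overlap Gm15821 and Gm20496, and exons of Psmb8 overlap Gm20496, all on the opposite strand. The part of these overlaps in the counts was not tested.

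The rest of the pathway was taken from 4 lists of 95 genes in all, of which 79 were in the table and 69 were tested. None passed the threshold in either direction, where 0.206% of all tested genes did, and 1 had an unadjusted p under 0.05. Of the 69, 34 had a log2 difference above 0 and 35 below, with a median of -0.03. The plot of strain differences sets the named ones beside the members.

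**Figure D4:**
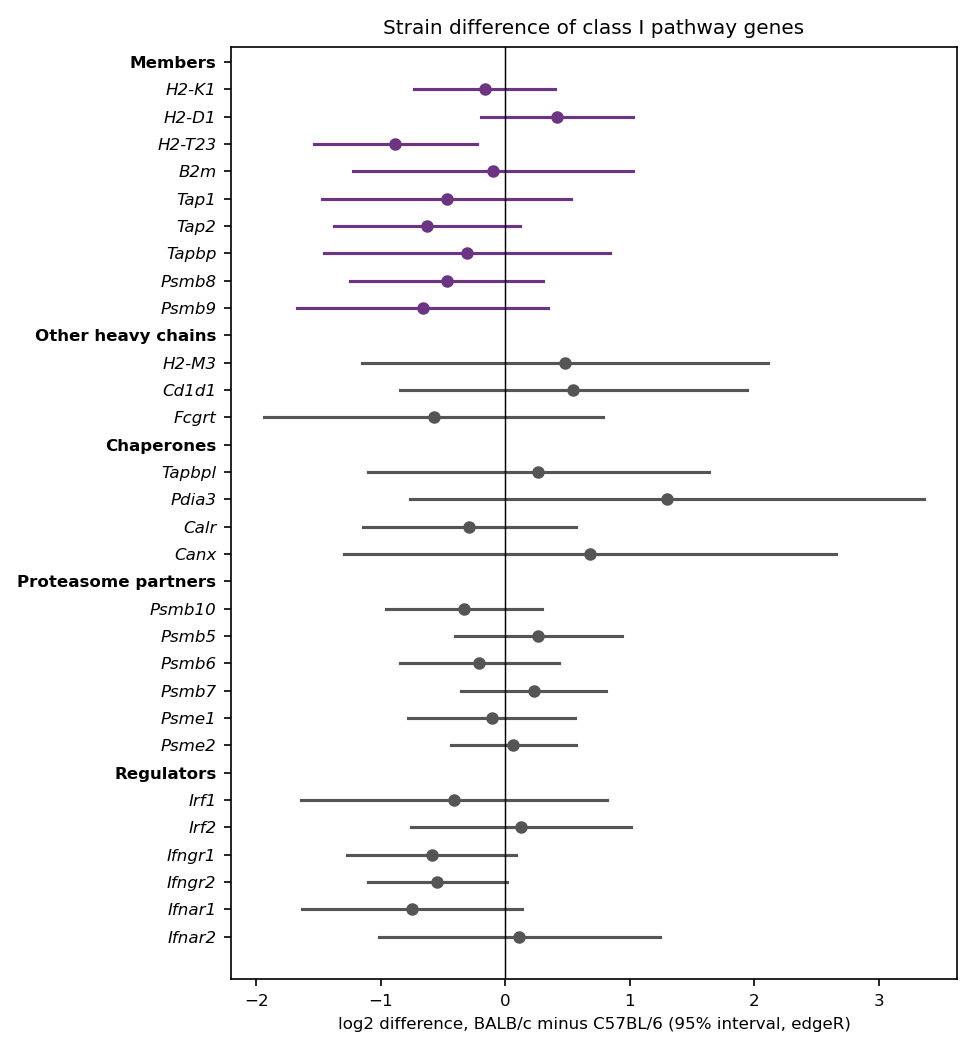
Log2 difference, BALB/c minus C57BL/6, as points with the 95% interval of edgeR's fit as lines, for the 9 tested members (purple) and named genes of the same pathway (grey). Among those plotted the interval leaves out 0 for H2-T23 alone, which did not pass after adjustment, and it is widest for Pdia3 and Canx.

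Of 26 other class I and class I-like heavy chains, 12 were in the table and 4 were tested, and 0 passed. H2-M3, which presents formylated peptides, had a log2 difference of 0.48 ± 0.69, Cd1d1, which presents lipids, 0.55 ± 0.59, and Fcgrt, the neonatal receptor for antibodies, -0.57 ± 0.58. H2-M9, picked out once its values were known, had the lowest p of the 4, at a log2 difference of -1.28 ± 0.65 (edgeR adjusted p = 0.954, unadjusted p of 0.0875), with 32 counts in BALB/c, against 125 in C57BL/6 and overlapping libraries. The sign of H2-M3 turned to -0.10 without BALB/c replicate 1, Cd1d1 was 0.07 without BALB/c replicate 2, and Fcgrt was -1.41 without BALB/c replicate 1. H2-Q4 had 21 counts over the BALB/c libraries, against 22 over the C57BL/6 ones, H2-T22 had 6 counts over the BALB/c libraries, against 11 over the C57BL/6 ones, and Mr1 had 29 counts over the BALB/c libraries, against 38 over the C57BL/6 ones. Cd1d2, also below the filter and picked out once its values were known, had 1, 15 and 7 counts in BALB/c replicates 1 to 3, against 0, 0 and 2 counts in C57BL/6 replicates 1 to 3, and every BALB/c library lay above every C57BL/6 library in CPM. H2-Q7 was listed but not found in the count table.

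Of 18 tested chaperones and peptidases of the loading route, 0 passed. Calr, calreticulin, which holds class I in the loading complex, had a log2 difference of -0.29 ± 0.36, and Tapbpl, a peptide editor related to tapasin, one of 0.27 ± 0.58. Pdia3, the disulfide isomerase bound to tapasin, was at 297, 210 and 207 CPM in BALB/c replicates 1 to 3, against 5.35, 163 and 121 CPM in C57BL/6 replicates 1 to 3. All BALB/c libraries lay above all C57BL/6 libraries, and the log2 difference was 1.30 ± 0.88 (edgeR adjusted p = 0.954), with C57BL/6 replicate 1 far below the rest. Canx, calnexin, which folds new heavy chains, was also lowest there, at 1.53 CPM, against 36.9 to 53.4 CPM in the other 5 libraries, with a log2 difference of 0.68 ± 0.84. Without C57BL/6 replicate 1 the log2 difference was 0.74 for Pdia3 and 0.14 for Canx, and without C57BL/6 replicate 2 that of Canx was 1.25.

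All 20 proteasome partners were tested and 0 passed. Psmb5, Psmb6 and Psmb7, the constitutive catalytic subunits, had log2 differences of 0.27 ± 0.29, -0.21 ± 0.27 and 0.23 ± 0.25. Psmb10 had -0.33 ± 0.27. Psme1 and Psme2, subunits of the activator that opens the proteasome, had -0.11 ± 0.29 and 0.06 ± 0.21. The difference was smaller than its standard error in all of these but Psmb10.

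Of 27 tested regulators 0 passed, and the BALB/c libraries all lay below the C57BL/6 libraries in 5 of them, as in 6.22% of all tested genes. The 5 were Irf8, Ifngr1, Ifngr2, Ifnar1 and Rela, of which Irf8 and Rela were picked out once their values were known. Ifngr1 and Ifngr2, the chains of the receptor for interferon gamma, the strongest inducer of class I genes, had log2 differences of -0.59 ± 0.29 and -0.54 ± 0.24. Ifngr2 was at 80.7, 94.5 and 69.7 CPM in BALB/c replicates 1 to 3, against 135, 108 and 115 CPM in C57BL/6 replicates 1 to 3 (edgeR adjusted p = 0.954, unadjusted p of 0.0539). Ifnar1 and Ifnar2, the chains of the type I interferon receptor, had -0.75 ± 0.38 and 0.11 ± 0.48. Irf1, a factor that carries the interferon signal to class I promoters, had -0.41 ± 0.52, and Irf2 had 0.13 ± 0.38. Irf8, a factor of myeloid cells, was the single companion with an unadjusted p under 0.05, at a log2 difference of -1.998 ± 0.594 (edgeR adjusted p = 0.886, unadjusted p of 0.0109).

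Nlrc5, the transactivator that drives class I, B2m, Tap1 and Psmb9 transcription, was below the filter. It had 0, 1 and 0 counts in BALB/c replicates 1 to 3, against 4, 2 and 20 counts in C57BL/6 replicates 1 to 3. Every C57BL/6 library held more than any BALB/c library. For the same effective depth BALB/c had 0.0541 times the C57BL/6 count, with an exact 95% interval of 0.00132 to 0.329 that covers counting error only and not the spread between libraries.

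In several marker lists most tested genes had differences of the same sign as most members, where 51.1% of all tested genes had a difference above 0. Of 8 tested leukocyte markers all 8 had a log2 difference below 0 with a median of -0.91, and 3 lay lower in every BALB/c library, as 6.22% of all tested genes did. Their list summed to 776, 569 and 774 CPM in BALB/c replicates 1 to 3, against 1250, 684 and 1143 CPM in C57BL/6 replicates 1 to 3. The ranges overlapped. The defining marker Ptprc had 7 counts over the BALB/c libraries, against 23 over the C57BL/6 ones. Cd3e and Cd79a were listed but not found in the count table, and 0 listed markers passed the threshold. Of 12 tested interferon response genes 9 had a difference below 0, with a median of -0.45, 3 lay lower in every BALB/c library, beside the same 6.22%, and 0 passed. Their summed level was 2054, 904 and 1597 CPM in BALB/c replicates 1 to 3, against 2042, 2372 and 1871 CPM in C57BL/6 replicates 1 to 3. Of the 10 epithelial markers 7 had a difference below 0, with a median of -0.44, and of 3 tested pericyte and smooth muscle markers all 3 did, with a median of -0.59. The part of these cell types or of interferon signalling in the values of the members was not tested, apart from the epithelial covariate.

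The other tested genes of the same stretch of chromosome 17 were set beside the members, since they lie on the same haplotype. From the start of Tapbp to the end of H2-T23, a stretch of 2.12 Mb, 75 genes were tested, 8 of them members. None passed, 4 had an unadjusted p under 0.05, or 5.33% against 3.86% of all tested genes, and in 12 the strains did not overlap, or 16% against 11.4%. The median log2 difference was -0.22, and 56 of the 75 were below 0. The 2 outermost differences belonged to class II genes, H2-DMb1 at -4.62 ± 0.97 (edgeR adjusted p = 0.288) and H2-Ab1 at 1.89 ± 0.30 (edgeR adjusted p = 0.117), both picked out once their values were known.

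**Figure D5:**
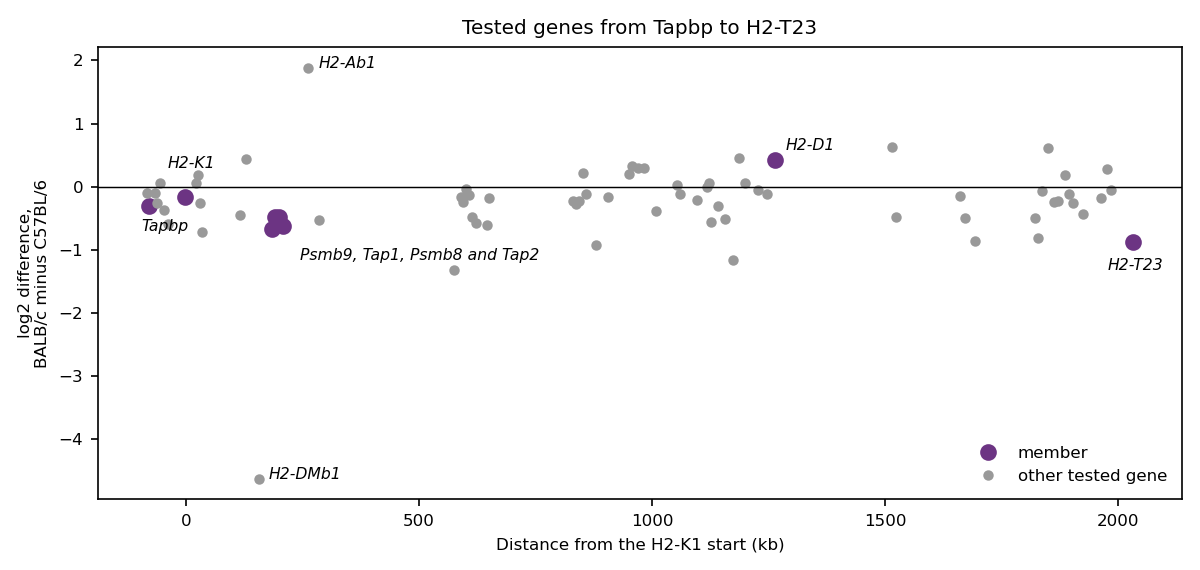
Log2 difference, BALB/c minus C57BL/6, of 75 tested genes against the distance in kb of each gene's middle from the start of H2-K1, with members in purple and other genes in grey. Most points lie within 1 of the zero line, the class I members run from -0.88 to 0.42, and the class II genes H2-Ab1 and H2-DMb1 lie at 1.89 and -4.62.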

How the data were processed

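RNA of 6 cultures was measured as raw counts per gene symbol, deposited by the authors in 1 table. The submitters' processing notes name STAR 2.4.2a, HTSeq, bcl2fastq and the build mm10. Strand use, annotation and multiple matches are not given in the sources. Every gene in the table has a highest count of 6 or more. The header parts its first names by spaces, so columns were matched by library name. Samples were grouped by the strain in their labels. With labels naming biological replicates but no animals per culture, p-values measure the spread between these libraries.

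The test was edgeR 4.0.16 (R 4.3.3) on the counts: filterByExpr by strain, TMM factors (0.866 to 1.06), a robust quasi-likelihood fit with strain as the only term, two-sided, Benjamini-Hochberg over 8752 genes, threshold 0.05. Each SE was the absolute log2 difference over the root of the F statistic, and intervals are at 95%. CPM are means ± SD over 3 libraries. Per-library ratios used a prior count of 0.5 on the log2 scale and exact permutation tests. Log2 CPM for deviations used a prior count of 2. Alternatives used other scalings and filters, DESeq2 1.42.0, limma 3.58.1's voom, covariates and leaving out each library. The fit was run on simulated data, where finding changed genes was required only at a spread between libraries below the fitted one. That run gives no measure here of how often a true difference would be found at the spread of these libraries. Pairs of libraries of a strain differed beyond counting noise (chi-square over its degrees of freedom, 10.8 to 57.2). Total counts of 1035485 to 4665896 set the counting precision. Coordinates are from GENCODE vM21 on GRCm38. Matching stretches in other genes were searched with BLAST+ 2.17.0 over the last 500 nt of the longest coding transcript. All 10 members were named, with partners fixed in lists. The members and lists were chosen with earlier results of these data known. A gene of the regulator list is not reported here.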

Additional observations from a re-analysis of the deposited data

How the results depend on the processing

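The counts of 0 members and 0 companion genes past the threshold held in every alternative run. For the ratios the exact test could not pass it. Its smallest p was 0.1 with 3 against 3 libraries and 0.2 with 2 against 3. Over all genes the 18 calls became 11 with library totals alone, 71 with DESeq2, 3 with limma-voom, 57 with library quality weights and 0 with the replicate block, where 158 had an unadjusted p under 0.05, and 0 to 25 when one library was left out. They were 0 without C57BL/6 replicate 3, 0 without BALB/c replicate 2 and 0 without BALB/c replicate 3 (261, 205 and 226 at an unadjusted p under 0.05), 4 without BALB/c replicate 1, 5 without C57BL/6 replicate 2 and 25 without C57BL/6 replicate 1. Same-numbered libraries share only a number: their deviations correlated at -0.42, -0.40 and -0.08, and no library correlated best with its own number. With the replicate block 0 members passed. Signs held in all alternatives for H2-K1, H2-D1, H2-T23, Tap1, Tap2, Psmb8 and Psmb9. The following log2 differences changed sign, none of them past the threshold in any setting, and the cause was not tested. B2m was 0.0706 with limma-voom and 0.069 with the replicate block. With library quality weights Psmb6 was 0.0387, Calr 0.0693, Irf2 -0.0887 and Ifnar2 -0.0762, and with the epithelial covariate Psme1 was 0.0073. Leaving out one library at a time gave ranges of -0.506 to 0.162 for B2m, -0.645 to 0.136 for Tapbp, -0.36 to 0.0638 for Psmb6, -0.318 to 0.0664 for Psme1, -0.0301 to 0.145 for Psme2, -0.509 to 0.146 for Calr, -0.402 to 0.622 for Tapbpl, -0.769 to 0.0735 for Irf1, -0.0857 to 0.247 for Irf2, -0.28 to 0.575 for Ifnar2 and -0.0984 to 1.13 for H2-M3. For ratios the ranges were -0.459 to 0.659 for Tap1/Tap2, -0.834 to 0.0173 for Psmb9/Tap1, -0.724 to 0.454 for H2-K1/B2m and -0.175 to 1.0995 for H2-D1/B2m. Depth limits Psmb9, Erap1 and Nlrc5.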
